A study of Mus musculus with 8 samples.

Results

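The genes examined here are 36 genes of the cell cycle and of DNA replication in the mouse hippocampus, among them the cyclins and their kinases, the MCM helicase and the proteins of the mitotic spindle. They were given as a list of symbols, and a gene was counted when its symbol was reached from the accession of a probe that was not a control. All 36 had a tested probe, out of 19742 genes tested, and 48 of 39408 tested probes belonged to them. A single probe stood for 28 of the genes and several for 8, and each gene is described by the brightest of its probes on average, with the other probes given for the called genes and for some of the rest.

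The samples were hippocampi dissected by hand from untreated C57BL/6J wild type mice that lived in their home cages, 4 of them young adults of 3 months (3M) and 4 aged 29 months (29M). Labelled with the dye Cy3, each sample was hybridised to 1 array, on which the brightness of a spot reports the abundance of a transcript. The question was which transcripts differ in level between young adult mice and mice near the end of their life span. The labels do not say whether the 4 samples of a group are 4 separate animals, so that p-values measure the spread between these samples only.

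The cell cycle runs through growth, DNA replication and division, and its phases are driven by cyclin-dependent kinases, which are active only when bound to a cyclin. Cyclins D and E lead a cell towards replication, E2F transcription factors switch on the genes for it, the MCM complex unwinds the DNA, and cyclin B with Cdk1 brings about mitosis. Most cells of the adult hippocampus have left the cycle, while precursors of granule neurons in the dentate gyrus, oligodendrocyte precursors and a few other glial and vascular cells still divide. In whole tissue, fewer cells of a type and less RNA per cell cannot be told apart.

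Each array carried 43020 spots that were not controls, and between 76.2% and 85.0% of them were well above background. Both ages were present on each of the 3 slides. Replicate 1 of 3M was the only array on which the scanner software marked quality metrics as out of range, 3 of them, and all pairs of arrays correlated across probes with r between 0.991 and 0.998. A deposited table of the whole series disagreed with the arrays, since 7 of its 8 columns held the local background of an array of another sample than the column names, and in 4 of these the other sample was of the other age. The groups used here come from the titles of the samples whose arrays these are, every difference between the ages rests on that assignment, and it was not tested which of the arrays and the table carries the right names. The 7 markers of hippocampal subfields, which define the labelled tissue, were all well above background on all 8 arrays.

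The promoters of the genes that fell are shown first, because cell cycle genes are known for short promoter elements through which they are switched on in S phase or in mitosis. Promoter sequences from RefSeq (GRCm38.p6), 250 bases before to 50 bases after the start of the gene, were found for 29 of the 36 genes. Ccnd1, Ccnd2, Ccna2, Mcm4, Aurkb, Kif20a and Tpx2 had no entry. Each sequence is written 5′ to 3′ on the strand of the gene. Capitals mark 3 elements on either strand: the CCAAT box (CCAAT, or ATTGG on the other strand), the cell cycle homology region (TTTGAA or TTCGAA, with TTCAAA on the other strand), and the E2F site in the forms TTTCCCGC, TTTCGCGC, TTTGCCGC and TTTGGCGC. Mki67, Ccnb1, Cdk1, Ube2c and Rrm2 are genes that fell, and Mcm6 is shown as a replication gene that was not called.
Mki67, chr7:135716330-135716629, minus strand: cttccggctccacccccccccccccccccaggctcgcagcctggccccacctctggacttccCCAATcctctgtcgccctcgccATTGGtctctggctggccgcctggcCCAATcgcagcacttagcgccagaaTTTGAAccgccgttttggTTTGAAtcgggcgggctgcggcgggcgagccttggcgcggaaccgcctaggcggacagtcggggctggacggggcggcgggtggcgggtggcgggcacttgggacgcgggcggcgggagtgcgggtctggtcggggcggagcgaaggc
Ccnb1, chr13:100786437-100786736, minus strand: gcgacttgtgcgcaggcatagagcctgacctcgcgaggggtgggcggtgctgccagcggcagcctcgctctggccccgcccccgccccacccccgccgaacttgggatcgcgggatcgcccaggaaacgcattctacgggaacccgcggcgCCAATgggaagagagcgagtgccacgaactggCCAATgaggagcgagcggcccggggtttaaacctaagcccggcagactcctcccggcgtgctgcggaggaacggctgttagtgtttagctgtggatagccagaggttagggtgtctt
Cdk1, chr10:69352863-69353162, minus strand: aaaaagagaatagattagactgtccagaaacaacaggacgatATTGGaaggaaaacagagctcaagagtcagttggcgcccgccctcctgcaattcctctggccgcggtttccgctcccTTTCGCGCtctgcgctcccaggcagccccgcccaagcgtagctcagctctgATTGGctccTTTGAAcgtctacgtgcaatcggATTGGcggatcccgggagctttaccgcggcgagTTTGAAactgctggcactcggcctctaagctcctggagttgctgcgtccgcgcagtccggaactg
Ube2c, chr2:164769679-164769978, plus strand: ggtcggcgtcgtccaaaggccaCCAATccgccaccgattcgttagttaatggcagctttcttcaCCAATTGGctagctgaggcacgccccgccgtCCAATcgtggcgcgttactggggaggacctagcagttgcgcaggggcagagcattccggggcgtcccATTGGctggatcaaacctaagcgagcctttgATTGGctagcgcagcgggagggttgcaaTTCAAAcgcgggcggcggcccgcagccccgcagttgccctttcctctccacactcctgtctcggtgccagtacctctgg
Rrm2, chr12:24708004-24708303, plus strand: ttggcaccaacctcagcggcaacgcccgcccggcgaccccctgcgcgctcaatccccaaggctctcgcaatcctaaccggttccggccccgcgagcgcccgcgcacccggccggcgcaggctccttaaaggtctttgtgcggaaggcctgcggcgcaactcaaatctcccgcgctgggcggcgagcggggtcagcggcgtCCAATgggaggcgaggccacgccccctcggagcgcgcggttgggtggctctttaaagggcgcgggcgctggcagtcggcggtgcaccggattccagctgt
Mcm6, chr1:128359656-128359955, minus strand: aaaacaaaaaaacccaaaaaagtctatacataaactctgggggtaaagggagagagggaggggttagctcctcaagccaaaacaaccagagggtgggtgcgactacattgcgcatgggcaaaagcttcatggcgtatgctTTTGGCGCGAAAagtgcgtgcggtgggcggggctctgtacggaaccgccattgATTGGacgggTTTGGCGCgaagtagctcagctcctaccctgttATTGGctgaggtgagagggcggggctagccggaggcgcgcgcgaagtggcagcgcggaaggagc

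A CCAAT box was found in 24 of the 31 promoters of these genes (77.4%), against 37.4% of 32851 promoters of the same length in the genome. The cell cycle homology region was found in 16 of 31 (51.6%), against 19.2% of all promoters. An E2F site in these forms was found in 6 of 31 (19.4%), against 2.26%. The E2F matches lay in Cdk1, Cdk2, Mcm3, Mcm5, Mcm6 and Mcm7, and in Mcm6 a pair of matches on opposite strands overlapped. Of the 6 genes that fell and had an entry, all 6 held a CCAAT box, and Mki67, Cdk1, Ube2c and Prc1 also held the homology region. Among all 29 genes with an entry, called or not, 22 held a CCAAT box and 15 the homology region. A match is a stretch of letters and says nothing about what binds there.

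Where a change passed the test, cell cycle genes were lower in the old hippocampus, and genes of the same step of the cycle differed in this. Of the 36 genes 7 fell (19.4%), namely Mki67, Ccnd2, Ccnb1, Cdk1, Rrm2, Ube2c and Prc1, against 0.694% of all genes tested. None rose, against 1.58% of all genes. A change was called when limma's moderated test gave an adjusted p under 0.1 over all probes and the log2 change was at least 0.5, which are the thresholds of the study's methods. The other 29 genes were not called. The falls among the 7 genes ran from 1.49-fold to 2.03-fold. In all, 28 of the 36 genes had a negative log2 change and 8 a positive one, with a median of -0.17, where the median of all genes was 0.01. At an unadjusted p under 0.05, 14 of the 36 were lower, against 7.65% of all genes, and 0 were higher. Values of 29M all lay below those of 3M in 13 of the 36 genes, against 5.21% of all genes.

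**Figure D1:**
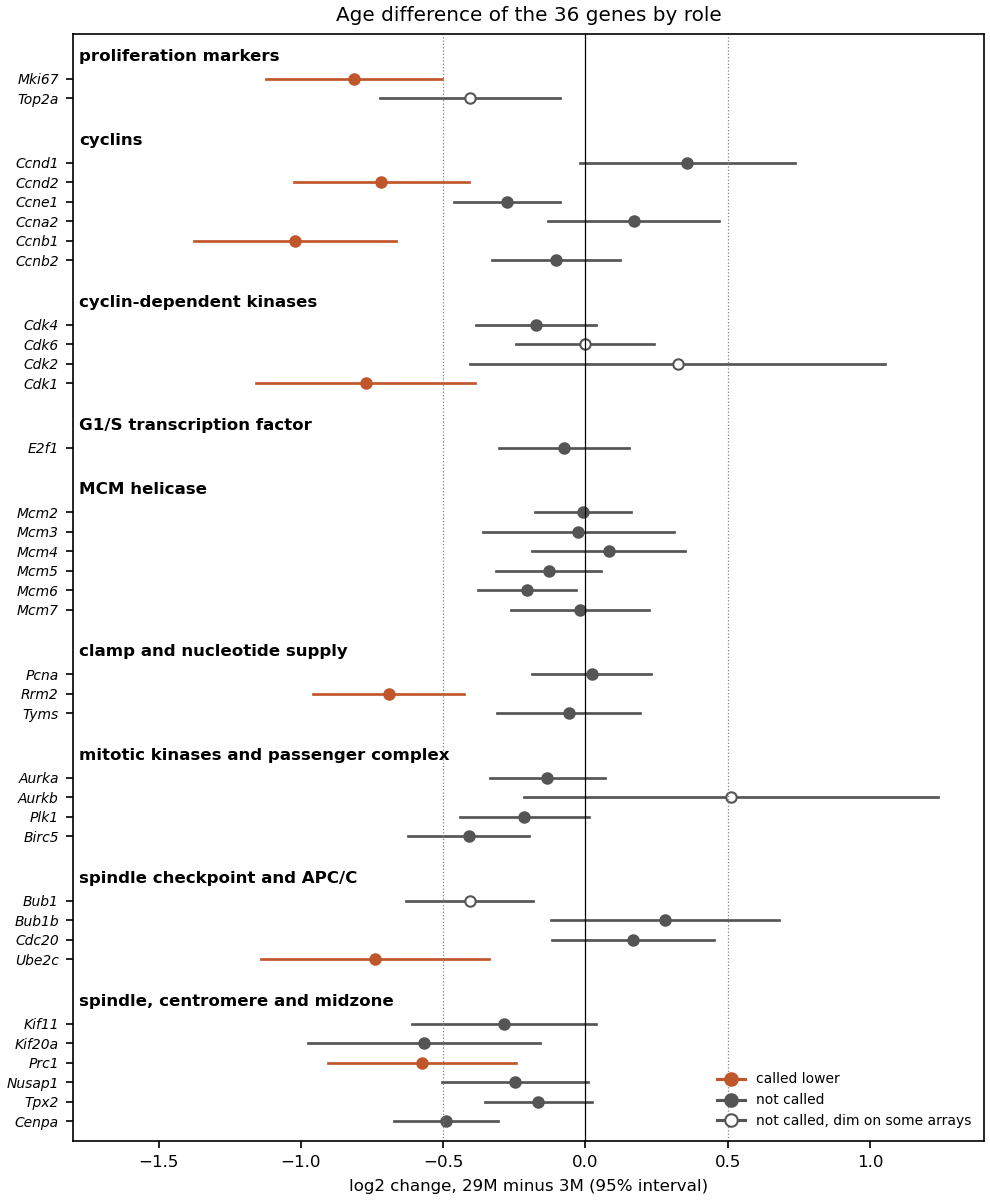
Log2 change (29M minus 3M) of the 36 genes grouped by role, with the 95% interval from limma; dotted lines stand at -0.5 and 0.5. The 7 called genes, drawn in orange, all lie left of the lower dotted line, as a call required, and open circles are genes not well above background on all 8 arrays.

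Mki67 encodes the Ki-67 protein, which coats mitotic chromosomes and is the standard marker of cycling cells. Its normalized log2 intensity was 9.54, 9.42, 9.26 and 9.80 on the 4 arrays of 3M and 8.70, 8.85, 8.81 and 8.41 on those of 29M. The groups did not overlap, and replicate 4 of each age was farthest from the other age. Mki67 fell by 0.81 on the log2 scale (SE 0.14, n = 4 and 4, limma adjusted p 0.0257), a 1.76-fold lower level. Its second probe also fell, by 1.09 (limma adjusted p 0.0706). Top2a encodes the topoisomerase that untangles replicated DNA and is the other common proliferation marker. Its values were 6.45, 6.23, 6.13 and 6.71 in 3M and 5.91, 6.22, 5.96 and 5.80 in 29M. The lowest 3M value lay below the highest 29M value, and the probe was well above background on only 3 arrays of 29M. The log2 change of Top2a, -0.41 (SE 0.14), was not called (limma adjusted p 0.193).

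Among the 6 cyclins, Ccnb1 and Ccnd2 fell and the others did not pass the test. Ccnb1 encodes cyclin B1, the partner of Cdk1 at the entry into mitosis. Its values were 7.96, 8.06, 7.49 and 8.14 in 3M and 6.93, 6.84, 7.15 and 6.65 in 29M. Every array of 29M lay below every array of 3M. The fall, 1.02 on the log2 scale with an SE of 0.16, was the largest of the 36 genes (2.03-fold, limma adjusted p 0.0189). The other 2 probes of Ccnb1 changed by -0.18 and -0.12 and were not called (limma adjusted p 0.440 and 0.634), so that the fall rests on 1 of 3 probes, and each of the other 2 was not well above background on at least 1 array. Ccnb2, which encodes cyclin B2, had a change of -0.10 on the log2 scale (SE 0.10, limma adjusted p 0.648), with a 95% interval from -0.33 to 0.12.

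The D cyclins link growth signals to the cycle, and Ccnd2 is the one that adult-born hippocampal precursors are known to need. Ccnd2 measured 13.83, 14.16, 13.85 and 14.14 in 3M and 13.36, 13.39, 13.44 and 12.92 in 29M. The groups were separate, with replicate 4 of 29M well below the others of its age. Ccnd2 fell by 0.72 (SE 0.14, limma adjusted p 0.0407), which is 1.64-fold. Ccnd1 measured 13.00, 13.08, 13.48 and 13.13 in 3M and 13.79, 13.75, 13.51 and 13.08 in 29M. Here 3 arrays of 29M lay above all arrays of 3M and replicate 4 of 29M lay among them. The log2 change of Ccnd1, 0.36 (SE 0.17, 95% interval -0.02 to 0.74), was not called (limma adjusted p 0.324). Within an array, Ccnd2 minus Ccnd1 averaged 0.82 in 3M (SD 0.32) and -0.25 in 29M (SD 0.17), a shift of -1.08 that is given as a description, since the pair was chosen after its values were seen. The call of Ccnd2 was lost when replicate 2 of 3M was left out (limma adjusted p 0.129) and when replicate 1 of 29M was (0.103).

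Cyclin E1 (Ccne1), which starts replication together with Cdk2, had a change of -0.27 on the log2 scale (SE 0.08, limma adjusted p 0.145), with separate groups. Its second probe changed by -0.05. Cyclin A2 (Ccna2), which acts in S phase and G2, had a change of 0.17 on the log2 scale (SE 0.13, limma adjusted p 0.561).

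**Figure D2:**
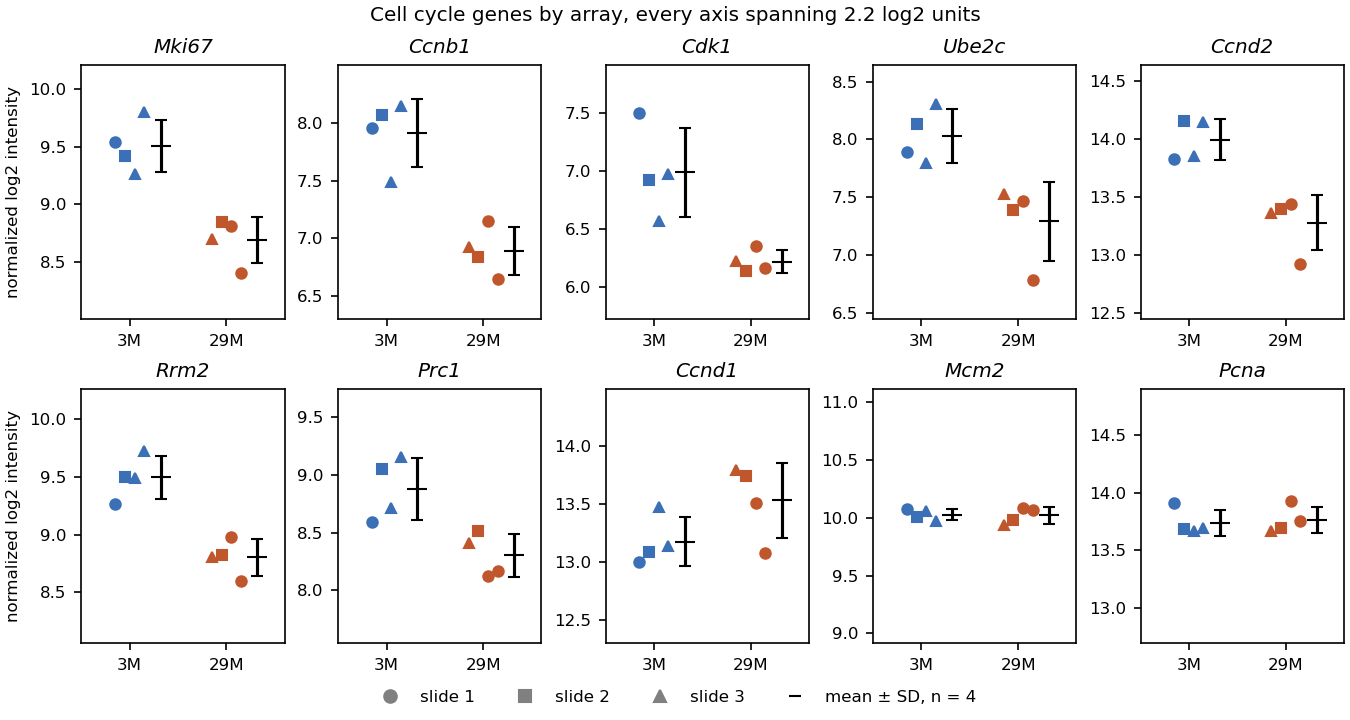
Normalized log2 intensity on each array for the 7 genes that fell and for Ccnd1, Mcm2 and Pcna, with mean ± SD (n = 4) at the right of each group and the shape of a point giving its slide. The arrays of 3M and 29M do not overlap for Mki67, Ccnb1, Cdk1, Ube2c, Ccnd2, Rrm2 and Prc1, and they overlap for the other three.

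Of the 4 cyclin-dependent kinases, Cdk1 fell and the kinases of G1 and S phase did not pass the test. Cdk1, the kinase of mitosis, measured 7.50, 6.92, 6.57 and 6.97 in 3M and 6.22, 6.13, 6.35 and 6.16 in 29M. The 4 old samples were close together and the young ones spread over nearly a log2 unit, from replicate 3 to replicate 1. Cdk1 fell by 0.77 (SE 0.17, limma adjusted p 0.0642), 1.71-fold. Over 18 alternative fits its log2 change ran from -1.28, where a 75th percentile scaling of the processed signal gave no call (limma adjusted p 0.139), to -0.56 with normexp. The other 2 probes of Cdk1 changed by -0.19 and -0.07, and neither was well above background on all arrays of a group. Without any of 5 arrays, replicates 2 and 4 of 3M and replicates 1, 2 and 4 of 29M, the adjusted p of Cdk1 was between 0.121 and 0.162.

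Cdk4, the kinase that works with D cyclins, measured 14.36, 14.44, 14.29 and 14.54 in 3M and 14.14, 14.12, 14.38 and 14.29 in 29M. The groups overlapped, and its log2 change of -0.17 (SE 0.09, limma adjusted p 0.386) was close to those of its other 2 probes, -0.15 and -0.11. The probe of Cdk6, the close relative of Cdk4, was well above background on none of the 8 arrays, so its values lie at background and no change can be read from them. Cdk2 ranged from 5.99 to 7.62 in 3M, where replicate 1 was lowest and not well above background, and from 6.77 to 7.59 in 29M. Its log2 change of 0.32 was about as large as its SE of 0.33 (limma adjusted p 0.661). Without replicate 1 of 3M the log2 change of Cdk2 was -0.00694, so that its direction rests on that array.

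The transcription factor gene E2f1, which drives genes of S phase, measured 10.36, 10.37, 10.12 and 10.02 in 3M and 10.16, 10.04, 10.15 and 10.22 in 29M. The old samples lay within the range of the young ones. The log2 change of E2f1 was -0.08 (SE 0.10, limma adjusted p 0.755), with a 95% interval from -0.30 to 0.15.

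None of the 6 subunits of the MCM helicase (Mcm2 to Mcm7), which opens DNA at replication origins, was called, and their median log2 change was -0.02. All 6 were well above background on every array. Mcm2 measured 10.07, 10.01, 10.06 and 9.97 in 3M and 9.94, 9.98, 10.09 and 10.07 in 29M. The groups overlapped almost wholly, and the 95% interval of its log2 change (-0.01, SE 0.07) ran from -0.18 to 0.16. Mcm3 (-0.03), Mcm4 (0.08), Mcm5 (-0.13) and Mcm7 (-0.02) had 95% intervals that lay within -0.36 and 0.35. Mcm6 stood apart from the other 5 in that its groups did not overlap, at 13.30, 13.31, 13.36 and 13.40 in 3M and 13.14, 13.24, 13.05 and 13.11 in 29M. The log2 change of Mcm6, -0.21 (SE 0.08), had an unadjusted p of 0.0238 and was not called (limma adjusted p 0.216).

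The sliding clamp and the enzymes that supply nucleotides were split. Pcna, the clamp that holds DNA polymerase on its template, measured 13.91, 13.69, 13.67 and 13.69 in 3M and 13.67, 13.70, 13.93 and 13.76 in 29M. The groups overlapped, and the log2 change of Pcna was 0.02 (SE 0.09, 95% interval -0.19 to 0.23). Rrm2 encodes the subunit of ribonucleotide reductase that is made in S phase and limits the supply of deoxynucleotides. Its values were 9.27, 9.50, 9.49 and 9.72 in 3M and 8.81, 8.83, 8.98 and 8.60 in 29M. The groups were separate, and Rrm2 fell by 0.69 (SE 0.12, limma adjusted p 0.0266), 1.62-fold. Tyms, which makes thymidylate, had a change of -0.06 on the log2 scale (SE 0.11, limma adjusted p 0.839).

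Of the 14 genes of mitosis, 2 fell (Ube2c and Prc1), against 0.694% of all genes. A negative log2 change was found in 11 of the 14, against 9305 of all 19742 genes, and their median was -0.27. Ube2c encodes the ubiquitin-conjugating enzyme with which the anaphase-promoting complex marks cyclin B for destruction. Its values were 7.89, 8.13, 7.80 and 8.30 in 3M and 7.53, 7.39, 7.47 and 6.78 in 29M. The groups did not overlap, and replicate 4 of 29M was lowest by a wide margin. Ube2c fell by 0.74 (SE 0.18, limma adjusted p 0.0815), 1.67-fold, and its second probe fell by 0.86 (limma adjusted p 0.0461). Prc1, which bundles microtubules in the midzone of the dividing cell, measured 8.59, 9.05, 8.71 and 9.16 in 3M and 8.41, 8.51, 8.13 and 8.17 in 29M. The groups were separate by the distance between 8.51 and 8.59. Prc1 fell by 0.57 (SE 0.15, limma adjusted p 0.0954), 1.49-fold. Both calls were near the threshold: without any 1 of 7 arrays (all but replicate 1 of 3M) the adjusted p of Ube2c lay between 0.102 and 0.207, and that of Prc1 between 0.136 and 0.235.

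Cenpa, the histone variant that marks centromeres, was just short of the size required. It measured 8.93, 8.84, 8.97 and 8.80 in 3M and 8.33, 8.41, 8.34 and 8.52 in 29M. The groups were far apart for their spread, and the log2 change of -0.49 (SE 0.08) had a limma adjusted p of 0.0245. Birc5, which encodes survivin of the chromosomal passenger complex, measured 9.35, 9.31, 9.49 and 9.51 in 3M and 9.01, 8.94, 9.19 and 8.88 in 29M, again without overlap, and its log2 change was -0.41 (SE 0.10, limma adjusted p 0.0718). The other 2 probes of Birc5 had log2 changes of -0.21 and -0.13 (limma adjusted p 0.483 and 0.419). Counting any size of change at a limma adjusted p under 0.1, 10 of the 36 genes were lower, against 267 of all 19742 genes tested. The third added gene was the checkpoint kinase Bub1 (-0.41, limma adjusted p 0.0849). The Bub1 probe was well above background on only 1 array of 3M and on none of 29M, so that the size of its change is not known.

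The remaining genes of the spindle and midzone had negative changes, none of them called. Kif20a, the kinesin of cytokinesis, had separate groups and a change of -0.57 on the log2 scale (SE 0.18, limma adjusted p 0.165). It measured 8.30, 7.93, 7.74 and 8.26 in 3M and 7.68, 7.62, 7.65 and 6.999 in 29M, where replicate 4 was lowest. The log2 change was -0.29 for Kif11, the motor that separates spindle poles, -0.25 for Nusap1, which binds spindle microtubules, and -0.17 for Tpx2, which activates Aurora A. The 95% intervals of Kif11, Nusap1 and Tpx2 all included 0. With Prc1 and Cenpa, all 6 genes of this group had a negative change, with a median of -0.39.

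The mitotic kinases Aurka (-0.13, limma adjusted p 0.495) and Plk1 (-0.21, limma adjusted p 0.321), which build the spindle, showed overlapping groups. The probe of Aurkb, the kinase of the passenger complex, was well above background on 1 array only, in 29M. Bub1b, of the spindle checkpoint, and Cdc20, which activates the anaphase-promoting complex, had positive log2 changes of 0.28 (SE 0.18, limma adjusted p 0.471) and 0.17 (SE 0.13, limma adjusted p 0.545).

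**Figure D3:**
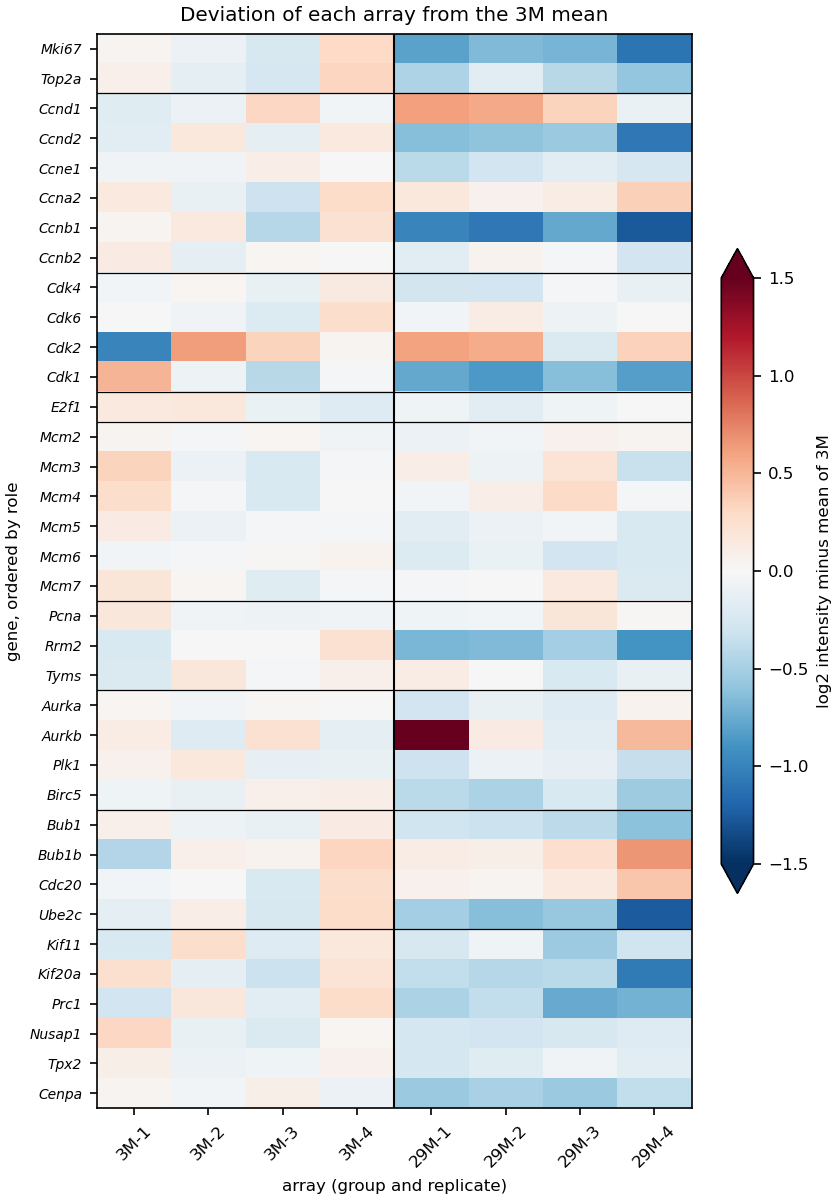
Log2 intensity of each array minus the mean of 3M for the 36 genes (rows, ordered by role, with lines between roles) on 8 arrays (columns). Rows of Mki67, Ccnd2, Ccnb1, Cdk1, Rrm2, Ube2c, Prc1 and Cenpa are blue on all 4 arrays of 29M, while the block from Mcm2 to Mcm7 is pale, and values past 1.5 (Aurkb on 1 array) take the end colour.

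All 7 genes had a negative change on each of the 3 slides. This follows from groups that did not overlap, since each slide held both ages, and is no further evidence. In a fit that blocked on slide, 5 of the 7 kept their call, the exceptions being Ube2c (limma adjusted p 0.154) and Prc1 (0.111), and in a fit with slide as a random effect all 7 did. The median log2 change of the 36 genes was -0.22, -0.13 and -0.21 on slides 1, 2 and 3. Leaving out replicate 1 of 3M, the array with the marked quality metrics, the number of genes that fell was 7 as before. The arrays differed in their distance from the other age all the same. Averaged over the 7 genes, the deviation from the mean of all arrays was 0.35, 0.44, 0.15 and 0.59 in 3M and -0.31, -0.31, -0.26 and -0.64 in 29M. Replicate 4 of 29M was the lowest of its group in 15 of the 36 genes and in 5 of the 7 that fell, and replicate 4 of 3M was the highest in 14 and in 5. Replicate 3 of 3M was the lowest of the young arrays in 17 of the 36 genes and in 4 of the 7. Without a single array the count of genes that fell ranged from 3, without replicate 1 of 29M, to 7. Without replicate 2 of either age it was 4 in each case, and for replicate 2 of 3M these included Cenpa, which is not among the 7.

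Other genes of the same pathways were taken from lists by function and not by their change, though with earlier results of these data known. They are therefore no independent check. Of 48 further genes of G1/S and replication, among them origin, polymerase and nucleotide genes, limma called 0 as lower, against 0.694% of all genes, and 0 as higher, against 1.58%, with 1 lower and 1 higher at an unadjusted p under 0.05. The median log2 change of these genes was 0.06, and 31 of the 48 were positive. Of 54 further genes of G2 and mitosis with a probe, 2 fell (3.70%, against 0.694% of all genes) and 1 rose (against 1.58%). At an unadjusted p under 0.05, 14 of the 54 were lower, against 7.65% of all genes, and 3 were higher. The median log2 change of these was -0.07, with 37 of 54 negative. The pair that fell was Lmnb1, which encodes lamin B1 of the nuclear envelope (-1.08, SE 0.23, limma adjusted p 0.0569), and Cdca8, which encodes borealin of the passenger complex (-0.63, SE 0.16, limma adjusted p 0.0961). In 6 of the 8 fits that left out an array, 0 genes of this list fell. Anln, which encodes the actin-binding protein anillin, rose. It measured 12.66, 12.80, 12.80 and 13.02 in 3M and 13.79, 13.93, 13.72 and 14.05 in 29M, with wholly separate groups. Anln rose by 1.06 (SE 0.11, limma adjusted p 0.00333). Besides cytokinesis, Anln is known to be made by myelinating oligodendrocytes, and the 6 oligodendrocyte markers all had positive changes, with a median of 0.18 and none called. The part of these cells in the rise of Anln was not tested.

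**Figure D4:**
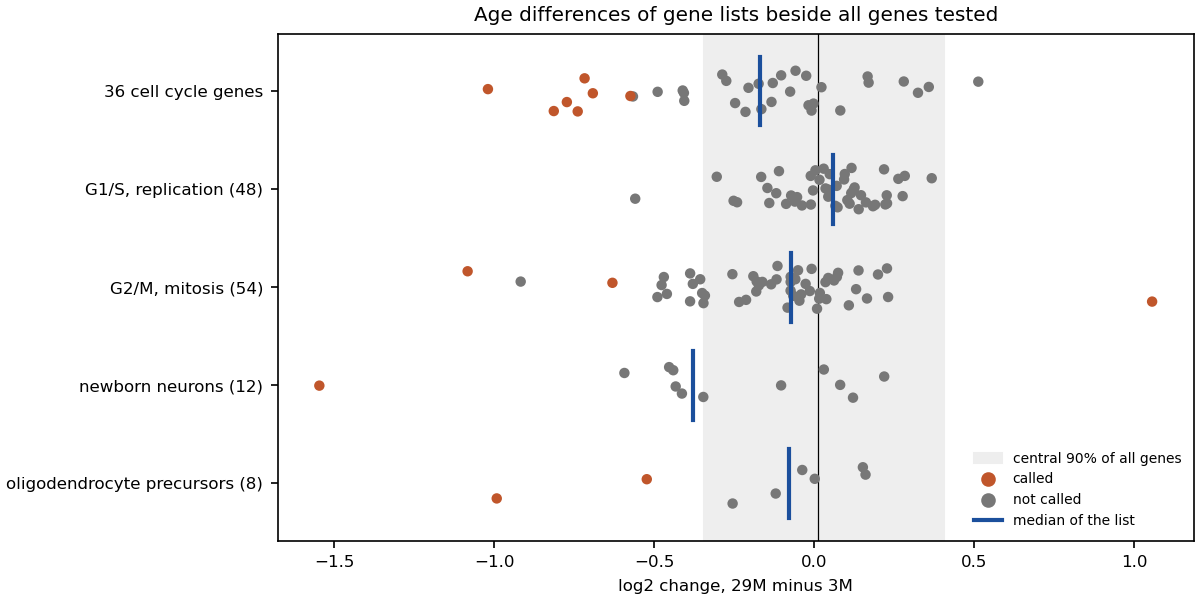
Log2 change (29M minus 3M) of the 36 genes, of the other genes of both pathways and of 2 marker lists, 1 point per gene, orange where called, with the median of each list as a blue bar. The grey band spans the 5th to the 95th percentile of all genes, -0.34 to 0.41. All 7 called cell cycle genes lie below it, as the size required for a call makes certain. The G1/S and replication list is centred at 0.06.

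Markers of cells that divide in the adult hippocampus, or arise there from dividing cells, were set beside these genes. Of 12 markers of newborn neurons and their precursors, 1 fell (8.33%, against 0.694% of all genes), 4 were lower at an unadjusted p under 0.05 (against 7.65% of all genes), and the median log2 change was -0.38. This median was 0.01, -0.39 and -0.20 on slides 1, 2 and 3. The marker that fell was Igfbpl1 (-1.55, limma adjusted p 0.0903), whose groups overlapped. Dcx, which encodes doublecortin of immature neurons, had a log2 change of -0.45 that was not called (limma adjusted p 0.117). A positive change was found for 4 of the 12, Neurod1 (0.22), Nes (0.12), Draxin (0.08) and Hopx (0.03), none of them called. The summed level of the 12 markers ranged from 31190 to 40466 in 3M and from 31910 to 37447 in 29M, in units of normalized intensity. Hopx, by far the brightest of the 12, weighs most in this sum. With equal weight for each marker, the mean deviation from the mean of all arrays did not overlap between the ages. It was -0.01, 0.27, -0.02 and 0.40 in 3M and -0.08, -0.25, -0.19 and -0.13 in 29M. The nearest values of the ages, -0.02 and -0.08, were close. Igfbpl1 had by far the largest change of the 12 and weighs most in this difference. The separation may rest on that gene, and the score without Igfbpl1 was not computed. Of 8 markers of oligodendrocyte precursors, Gpr17 (-0.99, limma adjusted p 0.0562) and Cacng4 (-0.52, limma adjusted p 0.0920) fell, 2 of 8 against 0.694% of all genes. Pdgfra, the defining receptor of these cells, had a log2 change of 0.00, and the median of the 8 was -0.08. A positive change was found for 3 of the 8, Cspg4 (0.16), Lhfpl3 (0.15) and, barely, Pdgfra, none of them called. The summed level of the 8 ranged from 29974 to 37051 in 3M and from 24992 to 31741 in 29M. Gpr17, the brightest of the 8 in 3M, weighs heavily in this sum, and its mean was 13.60 in 3M and 12.61 in 29M. With equal weight for each of the 8 markers, the mean deviations of the ages overlapped. They were -0.04, 0.16, 0.05 and 0.23 in 3M and -0.03, -0.02, -0.06 and -0.29 in 29M. The 9 markers of microglia all had positive changes (median 0.34), and 1 of them, Trem2, was called. Their summed level ranged from 240085 to 275850 in 3M and from 292420 to 309393 in 29M. Each marker of these 3 lists was well above background on at least 1 array. The part of these cells in the falls of the cell cycle genes was not tested.

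Median log2 changes of the other marker lists were 0.02 for mature neurons, -0.01 for hippocampal subfields, 0.01 for astrocytes and 0.04 for endothelial cells. For choroid plexus the median was 0.12, for ependyma -0.07, for red blood cells -0.32 (2 genes) and for T and B cells 0.15, where Cd8a was called as higher (0.71).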

How the data were processed

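Hippocampal RNA was measured on 8 one-colour arrays. For each array the authors deposited linear spot intensities straight from the scanner, with no normalization across arrays, extracted per the file headers with Agilent Feature Extraction 10.7.3.1. This version and the array design differ from those in the study's methods. The deposited series table also held intensities, but its 8 columns matched local background means (tolerance 0.001), in 7 cases those of another sample, so it was not used. Column medians were 26.7 to 34.8 scanner units. No scale, centring or direction of expression could be taken from it.

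Control spots and outlier spots (127 to 190 per array) were left out. The median intensity of a spot was used, since the mean was not in the files used here. Variance stabilising normalization, as named in the study's methods, was reimplemented in R 4.3.3 (7 iterations of least trimmed squares with a quantile of 0.9), as its package was not installed. It gives a generalized log2 scale that understates changes of dim probes. Age was the single term of a model fitted in limma 3.58.1 to every probe measured on at least 3 arrays of both groups, followed by eBayes and Benjamini-Hochberg adjustment. Calls required a log2 change of 0.5 or more in either direction with an adjusted p under 0.1. The steps were tested on simulated data. No filter on dim probes was applied. Summed levels of marker lists add 2 to the power of the normalized log2 values, so that the brightest genes of a list weigh most.

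Accessions of 26055 of 39429 probes (66.1%) were matched to RefSeq genes of GRCm38.p6, giving 19751 genes, and the arrays were designed on another build, so no probe coordinates are given. The list of genes, their roles, the pathway lists and the marker lists were chosen with earlier results of these data known. Every gene of the list is named. Values of all 8 arrays are printed for called genes and for Top2a, Ccnd1, Cdk4, Mcm2, Pcna and E2f1, and those of Mcm6, Cenpa, Birc5 and Kif20a were added after their values were seen. Pathway genes outside the list are named only where called, with 1 pathway gene, Kifc1, lacking a probe. Alternatives changed the signal, normalization, probe filter, outliers, variance model, slide or replicate block, thresholds and probe choice, and left out each array. The number of arrays limits the precision.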

Additional observations from a re-analysis of the deposited data

Results flagged for a closer look

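For each gene and age, the highest and the lowest of 4 values were set against the nearest other value, and the gap was taken as a share of the range. Among 72 groups of values (36 genes in 2 ages) 3 had an array that stood apart, and about 3.6 (1 in 20) would by chance alone. Replicate 4 of 29M was the lowest for Ccnd2 (gap 0.844), at 12.92 against 13.36 to 13.44, and for Kif20a (gap 0.913), at 6.999 against 7.62 to 7.68. Replicate 1 of 3M was the highest for Pcna (gap 0.899), at 13.91 against 13.67 to 13.69. Without replicate 4 of 29M the log2 change of Ccnd2 was -0.60, that of Kif20a was -0.40, and 5 of the 36 genes fell, Cenpa among them. Without replicate 1 of 3M that of Pcna was 0.08.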

How the results depend on the processing

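The median log2 change of the 36 genes stayed negative under all alternatives, from -0.22 to -0.13, and from -0.19 to -0.14 when single arrays were left out. The number of genes that fell, 7, was 4 with the variance stabilising model on the processed signal, 4 at an adjusted p under 0.05, and 3 to 7 without single arrays. With array weights it was 7, and with the 75th percentile scaling 5. Under that scaling Cdk1, Ube2c and Prc1 lost their calls, and Bub1, whose probe was well above background on 1 array only, was called. Mki67, Ccnb1 and Rrm2 kept their calls in 17 of 18 refits, Ccnd2 in 15, Cdk1 in 10, and Ube2c and Prc1 in 7 each. Genes of G2 and mitosis outside the list that fell, 2, were 0 with the 75th percentile scaling, 4 with array weights, 1 with slide as a fixed block, 0 at an adjusted p under 0.05, and 0 to 2 without single arrays.

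The labels do not say whether arrays with the same replicate number are paired. Deviations of same-numbered arrays correlated with r of -0.24, 0.21, -0.23 and 0.07, and those of arrays with unlike numbers with r from -0.32 to 0.40. No pairing was seen in this, but so few correlations cannot exclude it. With a replicate block, 0 of the 36 genes and 0 of the further genes of mitosis fell, and the adjusted p was 0.124 for Mki67, 0.104 for Ccnb1 and 0.118 for Rrm2.

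Direction turned in 7 of the 36 genes, none of them called: Cdk2, whose log2 change was 0.32 and rests on replicate 1 of 3M, and 6 with changes near 0. For Cdk6, whose probe lay at background on all 8 arrays, the difference was 0.0870 with normexp, 0.0156 with array weights and 0.00627 with slide as a fixed block. Mcm3 was 0.0447 with the 75th percentile scaling, 0.0590 on the processed signal and 0.0550 with array weights. Mcm7 was 0.00185 with array weights. With slide as a fixed block Pcna was -0.0265 and Tyms 0.00219. Without single arrays the log2 change ran from -0.00694 to 0.53 for Cdk2, -0.0705 to 0.0857 for Cdk6, -0.0312 to 0.0188 for Mcm2, -0.10 to 0.0879 for Mcm3, -0.0783 to 0.0483 for Mcm7, -0.0317 to 0.0797 for Pcna and -0.13 to 0.000194 for Tyms. The causes were not tested.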
